A study of Mus musculus with 9 samples.

Results

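The Schlafen genes of the mouse form a cluster on chromosome 11, and the 7 members followed here are Slfn1, Slfn2, Slfn3, Slfn4, Slfn5, Slfn8 and Slfn9, of 55401 genes in the deposited tables. The family was chosen by the measured differences of Slfn5 (lower) and Slfn8 (higher) between TIM-3 knockout and control cells, so the values of every member against the control are a description: they carry no p-value, and nothing is read from the counts of members called in those contrasts. The cells were NP53, a mouse line of diffuse midline glioma, a tumour of the brain stem and other midline structures. Gcontrol is the line with a wild-type genotype, and G1C7 and G2C9 are derivatives of it labelled as TIM-3 knockouts; each of the 3 groups had 3 libraries. Havcr2 encodes TIM-3, which restrains T cells and other immune cells at their surface. All groups were grown alike in medium with serum, and the labels name no treatment. How the gene was disrupted, whether each derivative is a single clone and whether the libraries came from separate cultures are not given in the sources used here. The p-values therefore measure only the spread between these libraries, and loss of TIM-3 and the derivation of each line cannot be told apart.

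Schlafen proteins take their name from the growth arrest that the founding member imposed on T cells. Mouse members come in a short form (Slfn1 and Slfn2), an intermediate form (Slfn3 and Slfn4) and a long form that carries a helicase-like part (Slfn5, Slfn8 and Slfn9). Many of them are induced by type I interferon and are studied mostly in lymphocytes and myeloid cells, where they are linked to quiescence, to cleavage of transfer RNA and to restriction of viruses. Human SLFN11, related to the long mouse forms, has been described as a determinant of the response to DNA damage.

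The promoters of the members that the results turn on are printed because the long forms differed in direction while sharing an interferon motif. Each runs 5′ to 3′ on the strand of the gene, from 250 bases before to 50 bases after the RefSeq start (GRCm38.p6); capitals mark a match to the interferon-stimulated response element (ISRE). The ISRE, a site through which type I interferon acts on its target genes, was searched as GAAA and GAAA with any pair of bases between them, and on the other strand as TTTC and TTTC spaced alike.
Slfn5, chr11:82951852-82952151, plus strand: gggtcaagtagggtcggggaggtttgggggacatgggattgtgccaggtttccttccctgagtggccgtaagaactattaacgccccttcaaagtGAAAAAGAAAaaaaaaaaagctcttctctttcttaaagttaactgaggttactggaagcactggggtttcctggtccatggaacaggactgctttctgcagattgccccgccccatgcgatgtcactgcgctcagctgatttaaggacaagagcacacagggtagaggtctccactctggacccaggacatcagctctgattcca
Slfn9, chr11:82991781-82992080, minus strand: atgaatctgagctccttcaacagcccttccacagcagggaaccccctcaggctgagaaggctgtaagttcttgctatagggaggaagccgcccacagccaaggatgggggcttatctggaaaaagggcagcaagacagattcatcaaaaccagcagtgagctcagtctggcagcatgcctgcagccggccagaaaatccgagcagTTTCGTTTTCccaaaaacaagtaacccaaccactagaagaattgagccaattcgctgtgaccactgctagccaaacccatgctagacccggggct
Slfn8, chr11:83020761-83021060, minus strand: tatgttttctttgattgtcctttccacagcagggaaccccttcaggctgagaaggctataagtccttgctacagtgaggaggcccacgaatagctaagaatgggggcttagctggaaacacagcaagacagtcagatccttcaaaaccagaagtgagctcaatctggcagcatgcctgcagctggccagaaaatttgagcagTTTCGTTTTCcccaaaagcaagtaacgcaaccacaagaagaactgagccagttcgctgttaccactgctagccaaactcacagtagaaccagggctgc
Slfn3, chr11:83191080-83191379, plus strand: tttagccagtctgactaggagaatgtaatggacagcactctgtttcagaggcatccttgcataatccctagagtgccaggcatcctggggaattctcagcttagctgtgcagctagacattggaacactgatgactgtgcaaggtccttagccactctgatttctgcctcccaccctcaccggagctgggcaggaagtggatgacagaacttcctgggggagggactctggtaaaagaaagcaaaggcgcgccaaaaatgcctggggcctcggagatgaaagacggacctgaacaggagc

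A match was found in 3 of the 7 members. In Slfn5 it read GAAAAAGAAA at positions -155 to -146 from the start. In Slfn9 it read TTTCGTTTTC at -45 to -36, and in Slfn8 the same 10 letters stood at -48 to -39. The second promoter that RefSeq gives Slfn8 holds that same site at -136 to -127. The Slfn8 and Slfn9 promoters were alike over their whole length, with 250 identical letters among 289 aligned (86.5%). The windows of Slfn1, Slfn2, Slfn3 and Slfn4 held no match, and none of the 7 held the gamma-activated site, searched as TTC and GAA with any 3 bases between them, which reads alike on both strands. Of all 32851 promoters of this length, 3.44% held the ISRE letters and 8.30% the gamma-activated site. Counted per gene, as for the members, the shares were 3.99% and 9.55% of 27025 genes. Among 43 of the interferon-stimulated genes listed further on that have a promoter in the table, 23 held the ISRE letters (53.5%). A match of letters is a description and not a bound site.

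Between 50110129 and 56035382 reads per library were assigned to genes, so the limit that a count of 0 allows, 3 read pairs or 6 reads, lay between 0.107 and 0.120 CPM. CPM are reads scaled to a common library total, here after TMM normalization for composition. Havcr2 had 74, 58 and 60 reads in Gcontrol, 55, 6 and 66 in G1C7 and 39, 30 and 28 in G2C9; a gene total does not show an edit, so it does not check the genotype. G1C7 replicate 2 and G2C9 replicate 3 stood apart: on the second principal component, 33.2% of the variance, they lay at 53.2 and 33.6, the Gcontrol libraries between 5.19 and 5.53, and the other 4 derivative libraries between -27.6 and -24.0. No label sets these 2 libraries apart, and results that rest on them are given with and without them. Of 10 glial and neural progenitor markers, Olig1 and Olig2 were at 0 in all 9 libraries and Sox10 and S100b averaged under 10 reads, while Pdgfra, Cspg4, Sox2, Nes, Vim and Gfap were read. The T and NK cell markers Cd3e, Cd3g and Cd2 were at 0 and the 10 of that list summed to at most 0.879 CPM, while the 4 B cell markers summed to at most 0.106 CPM. In such bulk samples, fewer cells of a type and less RNA per cell cannot be told apart.

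Slfn9, a long form, was the member that these cells read most. Its reads numbered 1649, 1679 and 1783 for Gcontrol, 2677, 1138 and 2645 for G1C7, and 2894, 2903 and 1814 for G2C9. Per kilobase of exon it made up between 75.3% and 96.3% of the summed family level in every library. Its level was 31.0 ± 0.486 CPM (SD, n = 3) in Gcontrol, 39.7 ± 16.5 CPM in G1C7 and 50.7 ± 13.2 CPM in G2C9. All 3 G2C9 libraries lay above all 3 Gcontrol libraries, whereas G1C7 had 2 libraries above Gcontrol and 1 below. The log2 fold change was 0.36 ± 0.32 (SE) in G1C7 and 0.71 ± 0.32 in G2C9. The derivatives differed by -0.35 ± 0.32 (G1C7 minus G2C9, adjusted p = 0.718, edgeR; a call needs an adjusted p under 0.05), within their spread. The low library in each derivative was the one that stood apart. Without both, the changes were 0.67 in G1C7, 0.91 in G2C9 and -0.24 between them, and the difference between the derivatives then passed the threshold. The part of these libraries' other differences in the Slfn9 values was not tested.

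**Figure D1:**
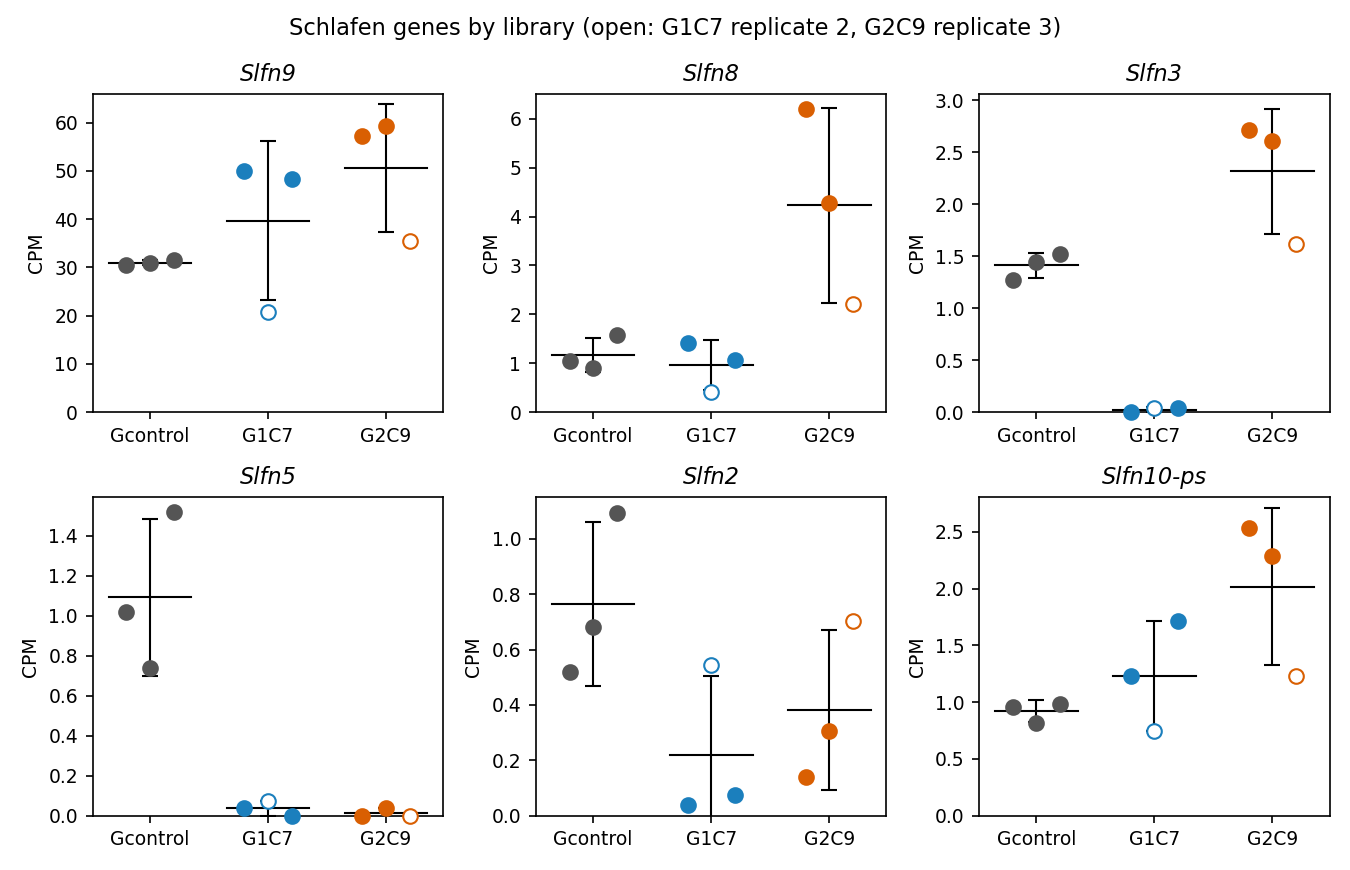
Level of 6 Schlafen genes in CPM (y axis) for each library by group (x axis); points are libraries, lines and bars the mean ± SD of 3, bars are not drawn below 0, and open points mark G1C7 replicate 2 and G2C9 replicate 3. Slfn5 is near 0 in both derivatives, Slfn3 in G1C7 alone, and the 3 G2C9 points of Slfn8 lie above the 3 Gcontrol points.

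Slfn8, also a long form and the neighbour of Slfn9 on the same strand, was one of the pair of genes that chose the family. Its reads were 57, 49 and 89 in Gcontrol, 76, 23 and 58 in G1C7, and 313, 210 and 113 in G2C9. Every G2C9 library was above every Gcontrol and every G1C7 library, while G1C7 and Gcontrol overlapped. The level was 1.18 ± 0.349 CPM in Gcontrol, 0.967 ± 0.508 CPM in G1C7 and 4.23 ± 2.00 CPM in G2C9 (SD, n = 3 each). G2C9 thus held 3.57 times the normalized reads of Gcontrol, with a 95% interval of 2.84 to 4.53 that covers counting error only. On the log2 scale the change was 1.84 ± 0.50 in G2C9 and -0.28 ± 0.50 in G1C7, and G1C7 minus G2C9 was -2.13 ± 0.51. The last is also given with no p, since the levels of Slfn8 in the derivatives chose the family. Leaving out 1 library at a time moved the G2C9 value between 1.46 and 2.16. The summed endothelial markers were also higher in G2C9: the 5 of the list summed to 1.02 to 1.35 CPM in Gcontrol, 1.55 to 1.72 in G1C7 and 3.80 to 4.75 in G2C9, with Emcn at 0 in all libraries. That sum was mostly Cdh5 (0.729 CPM in Gcontrol and 3.55 in G2C9), while Kdr stood at 0.274 and 0.184 CPM; their part in the result was not tested. The sign in G1C7 rested on replicate 2, without which the value was 0.079.

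Slfn5, a long form on the strand opposite to Slfn8 and Slfn9 and next to Slfn9 at the low end of the cluster, was the other gene that chose the family. Gcontrol held 55, 40 and 86 reads, G1C7 held 2, 4 and 0, and G2C9 held 0, 2 and 0. Both derivatives lay below every Gcontrol library, and over each derivative the sum was at or under the limit of 6 reads, so no fold is given between them. The normalized reads of Gcontrol were 29.8 times those of G1C7 (95% counting interval 9.89 to 147) and 82.7 times those of G2C9 (14.5 to 3302). The fitted log2 fold changes were -4.81 ± 0.82 and -6.13 ± 0.95. Of its 6326 exonic bases, 559 (8.84%) overlap the antisense gene Slfn5os, where reads of either gene would be dropped, and Slfn5os itself had 0 reads in all libraries. Macrophages and microglia are known to read Schlafen genes, and the 10 markers of these cells summed to 5.21 to 5.59 CPM in Gcontrol, 2.81 to 4.97 in G1C7 and 3.12 to 4.71 in G2C9. The sum was mostly Cd68 (4.14, 3.07 and 2.97 CPM in the 3 groups) and Csf1r (1.12, 0.410 and 0.630), and the other 8 averaged under 10 reads. Of the 10, Adgre1, C1qa, C1qb and Tyrobp were at 0 in all libraries, and the part of such cells in the Slfn5 difference was not tested.

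Slfn3, of the intermediate form, separated the 2 derivatives. The reads were 69, 78 and 86 in Gcontrol, 0, 2 and 2 in G1C7, and 137, 128 and 83 in G2C9. Normalized, no group overlapped another: G2C9 was highest (2.32 ± 0.604 CPM), Gcontrol lay between (1.41 ± 0.124) and G1C7 was close to 0 (0.0243 ± 0.0211; SD, n = 3 each). G2C9 held 94.2 times the normalized reads of G1C7 (95% counting interval 25.7 to 784), and Gcontrol 57.6 times (15.6 to 481). The fitted difference of G1C7 minus G2C9 was -6.43 ± 0.54 (adjusted p = 0.000605, edgeR over 15659 genes). This call held in all 18 alternative fits, with values from -7.00 to -5.90 and adjusted p up to 0.0213. Against Gcontrol the fitted change was -5.72 ± 0.54 in G1C7 and 0.71 ± 0.37 in G2C9. Without the libraries that stood apart the G2C9 value was 0.92.

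A pair of less studied genes beside Slfn3, AI662270 and Gm11427, singled out after their values were seen, were nearly unread in both derivatives. AI662270, which starts 272 kb from Slfn5, had 14, 12 and 6 reads in Gcontrol and none in any of the 6 derivative libraries. Set against 6 reads over a group, the bound was 5.28-fold lower in G1C7 and 4.87-fold lower in G2C9. With counting error in Gcontrol included, the lower 95% limits were 3.81 and 3.52. Gm11427, 273 kb from Slfn5, had 16, 8 and 16 reads in Gcontrol, none in G1C7 and 3, 0 and 0 in G2C9. Set against 6 reads, the bound was 6.59-fold lower in G1C7 (lower 95% counting limit 4.88). Gcontrol held 12.2 times the reads of G2C9 (95% counting interval 2.52 to 179). Neither had enough reads to be tested, and neither shared the higher level of Slfn3 in G2C9.

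Slfn2, a short form, is known to keep T cells and monocytes quiescent. Its reads were 28, 37 and 62 in Gcontrol, 2, 30 and 4 in G1C7, and 7, 15 and 36 in G2C9. The derivatives overlapped Gcontrol through 1 library each, the one that stood apart, which was 9.89 times (G1C7) and 3.16 times (G2C9) the mean of the other 2. The level was 0.765 ± 0.297 CPM in Gcontrol, 0.219 ± 0.284 CPM in G1C7 and 0.383 ± 0.290 CPM in G2C9 (SD, n = 3 each). The log2 fold change was -1.79 ± 0.90 in G1C7 and -0.99 ± 0.86 in G2C9. The derivatives differed by -0.80 ± 0.91 (adjusted p = 0.797, edgeR), within their spread. Without both libraries that stood apart the changes were -3.73, -1.78 and -1.95.

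The remaining members were hardly read. Slfn1, the founding short form, had 0 reads in all 9 libraries, and Slfn4, an intermediate form known from myeloid cells, had 2 reads in Gcontrol replicate 2 and 0 elsewhere, so neither was tested. Of the 3 other Schlafen genes, the pseudogene Slfn10-ps, between Slfn8 and Slfn2, had 52, 44 and 56 reads in Gcontrol, 66, 41 and 94 in G1C7, and 128, 112 and 63 in G2C9. All G2C9 libraries were above all Gcontrol libraries, as for Slfn8 and Slfn9, while G1C7 overlapped both groups. Its change was 0.42 ± 0.37 in G1C7 and 1.13 ± 0.37 in G2C9, neither past the threshold, and without both libraries that stood apart 0.68 and 1.39, both past it. The derivatives differed by -0.71 ± 0.37 (adjusted p = 0.434, edgeR). Slfn14 had 6 reads in Gcontrol replicate 2, 2 in G2C9 replicate 1 and 0 in the other 7 libraries. Slfnl1, a relative on chromosome 4, had between 0 and 4 reads per library.

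Close sequence limits how far these genes can be separated by reads of 100 bases. Of all windows of that length in the GENCODE transcripts, 3.38% for Slfn8 and 3.71% for Slfn9 also occurred in another gene, all of them in each other or in Slfn10-ps. The share was 7.84% for Slfn10-ps, which shared windows with Slfn8 and Slfn9 alone. It was 6.40% for Slfn5, mostly with Slfn5os, the antisense gene that overlaps its exons at the same positions. For Slfn3 it was 2.92%, mostly with Gm11427, and for Slfn2 0.128%. Reads placed in such stretches are dropped when they have several positions, so the levels of Slfn8, Slfn9 and Slfn10-ps are uncertain to that extent.

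**Figure D2:**
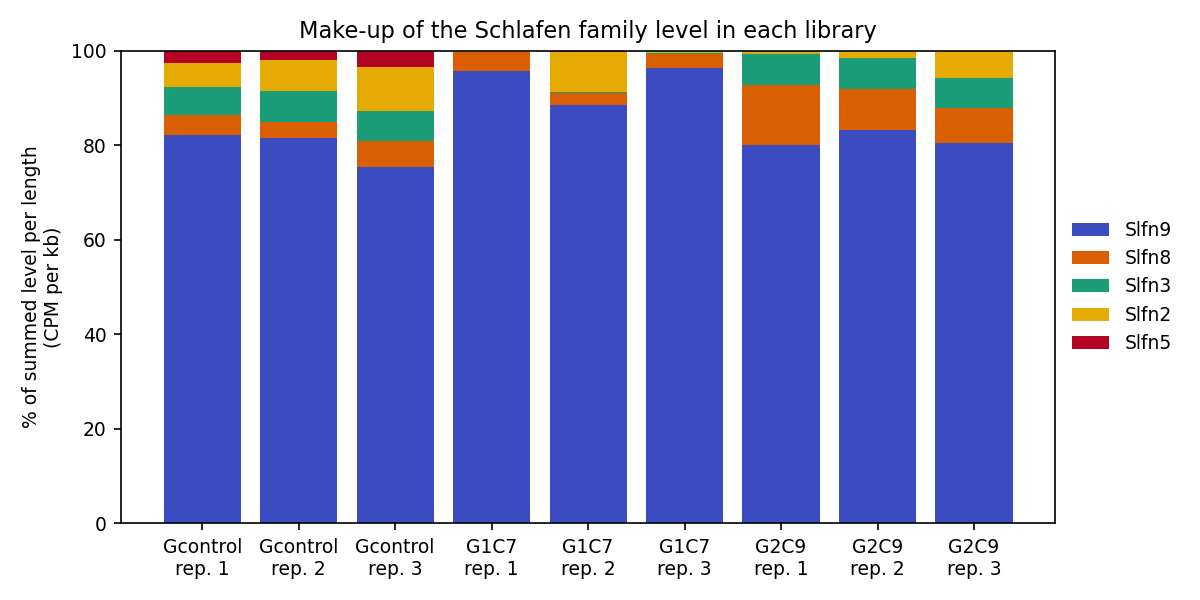
Make-up of the summed family level (CPM per kilobase of exon, y axis in percent) in each of the 9 libraries (x axis), with 1 colour per member; Slfn1 and Slfn4 are too low to be seen. Slfn9 takes between 75.3% and 96.3%, Slfn8 widens in G2C9, Slfn3 is close to 0 in G1C7, and Slfn5 is close to 0 in both derivatives.

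Per length, the order of the members in Gcontrol was Slfn9 (5.19 ± 0.0815 CPM per kb), Slfn2 (0.460 ± 0.178), Slfn3 (0.414 ± 0.0362), Slfn8 (0.288 ± 0.0853) and Slfn5 (0.172 ± 0.0623; SD, n = 3 each). The libraries of each of the last 4 overlapped those of the next in this order. In G1C7, Slfn9 (6.66 ± 2.76) was followed by Slfn8 (0.236 ± 0.124) and Slfn2 (0.132 ± 0.171), which overlapped, with Slfn3 (0.00713 ± 0.00617) and Slfn5 (0.00581 ± 0.00576) near 0 and overlapping. In G2C9 the order was Slfn9 (8.49 ± 2.22), Slfn8 (1.03 ± 0.488), Slfn3 (0.679 ± 0.177), Slfn2 (0.230 ± 0.174) and Slfn5 (0.00215 ± 0.00373). Slfn8 and Slfn3 overlapped in G2C9, and the others did not overlap their neighbours in this order. As a share of the family, Slfn8 ranged from 2.61% to 12.6% across libraries, Slfn3 from 0% to 6.63%, Slfn2 from 0.256% to 9.39% and Slfn5 from 0% to 3.43%.

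Of the 7 members, 5 had enough reads to be tested. In G1C7, 2 of the 5 were called against Gcontrol, Slfn3 and Slfn5, both lower, where 17.5% of all tested genes were called, 8.77% higher and 8.73% lower. In G2C9, 2 of the 5 were called, Slfn5 lower and Slfn8 higher, where 13.5% of all tested genes were called, 6.25% higher and 7.22% lower. The Slfn8 call held in 11 of 18 alternative fits and was lost in 6 of the 9 without 1 library. The Slfn5 call held in all 17 alternatives that could fit it, in each derivative. Nothing is read from the counts of members called or from how often these calls held, since the same contrasts chose the family. Between the derivatives, 1 of the 5 was called, Slfn3, lower in G1C7, where 3.36% of tested genes were called, 1.71% higher and 1.65% lower in G1C7. The groups did not overlap for Slfn3 and Slfn5 in G1C7 against Gcontrol (43% of tested genes), and for all tested members but Slfn2 in G2C9 against Gcontrol (43.3%). Between the derivatives they did not overlap for Slfn3 and Slfn8 (18.2%). Nothing is read from the number of members without overlap either, since the levels of Slfn5 and Slfn8 in the derivatives chose the family. The median log2 fold change of the 5 was -1.79 (the value of Slfn2), 0.71 (Slfn9) and -0.80 (Slfn2) in the 3 comparisons, none of them called. Over all tested genes the median was 0.02, 0.01 and 0.01. The medians of the members are a description, and no shift of the family is read from them.

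**Figure D3:**
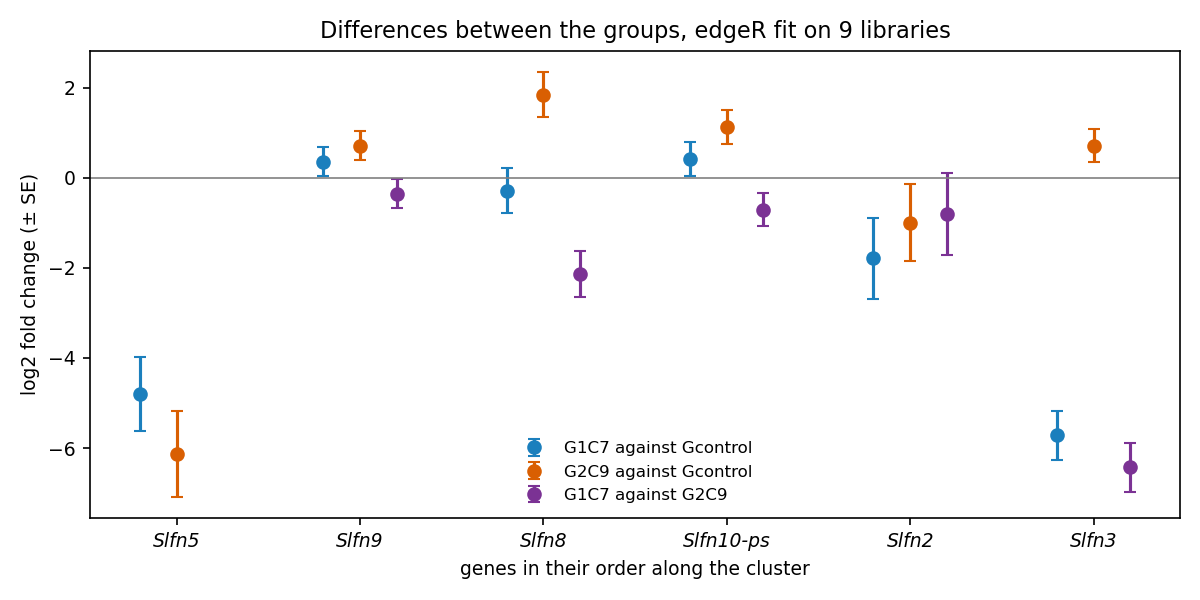
Fitted log2 fold changes ± SE (y axis) of 5 members and Slfn10-ps (x axis, in order along the chromosome) for G1C7 against Gcontrol, G2C9 against Gcontrol and G1C7 against G2C9; Slfn5 has no value between the derivatives. Slfn5 is low in both derivatives, Slfn3 is low in G1C7, and Slfn8 is high in G2C9.

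The libraries that stood apart moved the members in opposite directions. In both derivatives Slfn9, Slfn8 and Slfn10-ps were lowest in the library that stood apart, at 0.421, 0.338 and 0.506 times the mean of the other 2 libraries in G1C7 and at 0.608, 0.421 and 0.510 times in G2C9. Slfn2 was highest there in both. Of all tested genes, 32.1% were lowest and 34.3% highest in these libraries in both derivatives, so such a pattern is common here. Without the 2 libraries, 4, 5 and 3 of the 5 tested members were called in G1C7, in G2C9 and between the derivatives, where 54.3%, 53% and 27.3% of all tested genes were called.

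The share of interferon signalling genes that were called was near that of all tested genes. From a list of 22 receptors, kinases, transcription factors and regulators, 20 were tested, and in G1C7 3 were called, beside 17.5% of all tested genes: 1 higher and 2 lower, with a median log2 fold change of -0.05. Among them, Irf5 fell (-2.56 ± 0.75, adjusted p = 0.0483) and Ifngr1, a chain of the interferon gamma receptor, rose (0.43 ± 0.08, adjusted p = 0.0101, both edgeR). The Irf5 call ended in 7 of the 9 fits without 1 library, all but those without G1C7 replicate 2 or G2C9 replicate 3, and that of Ifngr1 in 1, without Gcontrol replicate 1.

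In G2C9, 2 of the 20 were called, beside 13.5% of all tested genes, both lower, with a median of -0.07. One of them, Irf1, an activator of interferon targets, stood at 65.3, 64.9 and 64.6 CPM in Gcontrol, 43.7, 70.4 and 46.1 in G1C7, and 31.7, 35.6 and 39.6 in G2C9. The 3 G2C9 libraries lay below Gcontrol, while G1C7 replicate 2 lay above it. Irf1 fell by 0.86 ± 0.18 in G2C9 (adjusted p = 0.0142, edgeR) and had a value of -0.28 ± 0.18 in G1C7. The G2C9 call was lost in 5 of the 9 fits without 1 library, those of Gcontrol and G2C9 replicates 1 and 2; without G1C7 replicate 2 the G1C7 value was -0.53 and was called. Stat2, Irf9 and Irf7, also transcription factors of the pathway, did not pass in either derivative. Stat2 stood at 0.47 in G1C7 and 0.40 in G2C9, Irf9 at -0.32 and -0.26, and Irf7 at -1.82 and -1.62. Without both libraries that stood apart, Irf7 stood at -3.34 and -3.49 and Irf9 at -0.32 and -0.45, and all 4 values were called. The receptor chains Ifnar1 (-0.05 and -0.08) and Ifnar2 (0.02 and 0.16) were close to 0; without both libraries Ifnar1 was called in both derivatives (-0.17 in each) and Ifnar2 in G1C7 (-0.37). Between the derivatives edgeR called 0 of the 20, with 3 at an unadjusted p under 0.05, and DESeq2 called 2. The interferon genes themselves were at or near 0, with 8, 3 and 3 reads of Ifnb1 over the 3 groups and 0 of Ifng.

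Interferon-stimulated genes other than the Schlafen family were mostly lower where they were called. Of 55 listed, 51 were tested; 17 were called in G1C7, all lower, with a median of -1.09, where 8.73% of all tested genes were called lower. In G2C9 18 were called, 17 lower and 1 higher, with a median of -0.94, where 7.22% of all tested genes were called lower and 6.25% higher. Rsad2, an antiviral enzyme, had 78, 76 and 78 reads in Gcontrol, 0, 2 and 0 in G1C7 and 0 in each G2C9 library. It was lower 115-fold in G1C7 (95% counting interval 20.2 to 4571). Set against 6 reads over the group, the bound in G2C9 was 35.3-fold lower (lower 95% counting limit 28.3). This bound cannot be compared with the G1C7 fold, which rests on 2 reads. Its genomic neighbour Cmpk2, a nucleotide kinase, had 52, 64 and 48 reads in Gcontrol and 2 in each derivative as a whole. Oasl1 (-6.72 ± 1.28) and Oasl2 (-4.59 ± 1.12), relatives of the oligoadenylate synthetases, fell in G1C7. There the Oasl1 call held in all 9 fits without 1 library. The Oasl2 call was lost in 5, those without a Gcontrol library or G1C7 replicate 1 or 3. In G2C9 Oasl2 was also called lower (-3.82 ± 1.07), a call lost in 7 of the 9 fits, and Oasl1 stood at -2.44 ± 0.92, not called. The immunoproteasome genes Psmb9 (-4.87 ± 1.21) and Psmb8 (-4.19 ± 1.10) fell in G2C9, and Ifit2, a binder of viral RNA, rose (0.60 ± 0.15). These 3 calls were all lost without any 1 of the Gcontrol libraries or G2C9 replicate 1 or 2, and that of Psmb9 also without G2C9 replicate 3. In G1C7 Psmb9 stood at -2.62 ± 0.98, Psmb8 at -1.21 ± 0.93 and Ifit2 at 0.42 ± 0.15, none of them called. Between the derivatives 1 of 51 was called: Gbp2, an interferon-induced GTPase named after its value was seen, was lower in G1C7 (-1.06 ± 0.11, adjusted p = 0.00211, edgeR).

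The Schlafen genes can be set beside this list in each library. On the log2(CPM + 0.5) scale, the median difference of the 51 genes from the Gcontrol mean was -1.06, -0.46 and -0.94 in the G1C7 libraries and -1.08, -1.02 and -0.26 in the G2C9 libraries. It was nearest to 0 in the library of each derivative that stood apart, where Slfn2 was also nearest to its Gcontrol level. Slfn9 and Slfn8 were lowest there. Without the 2 libraries, 44 and 45 of the 51 were called (42 and 43 lower) in G1C7 and G2C9, against the shares of all tested genes given above for those fits.

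**Figure D4:**
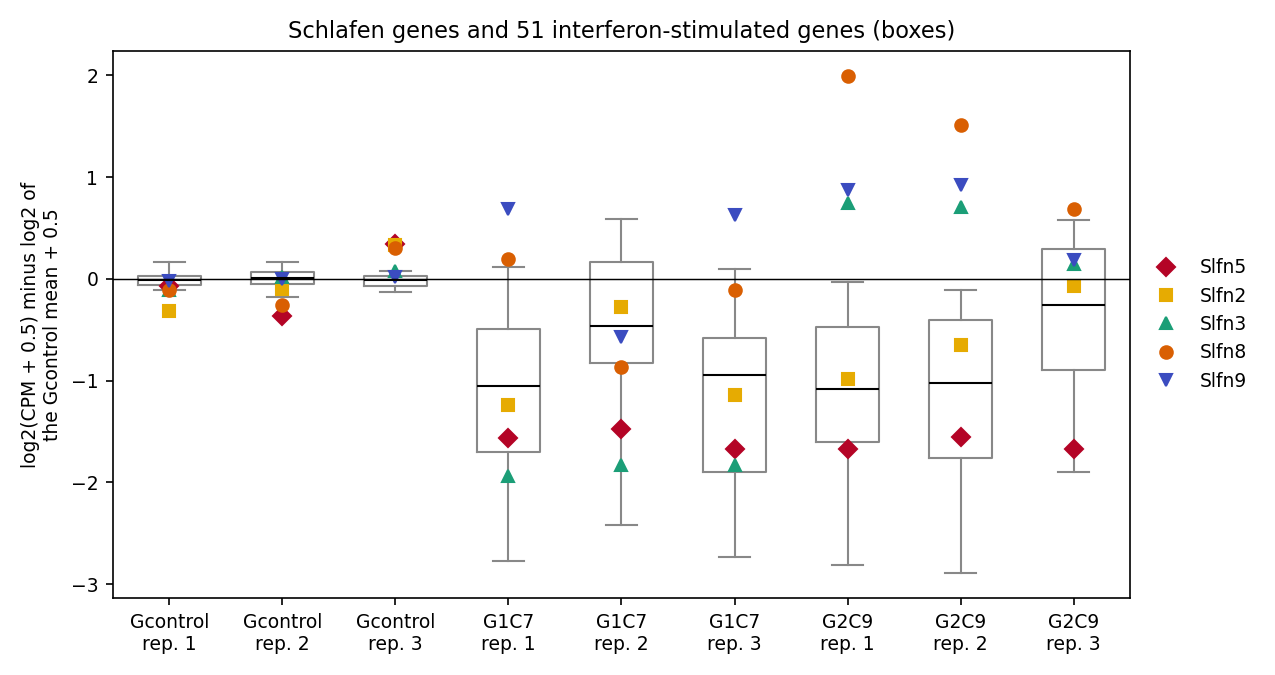
Difference from the Gcontrol mean on the log2(CPM + 0.5) scale (y axis) in each library (x axis) for the 5 tested Schlafen members (symbols) and for 51 interferon-stimulated genes (boxes with median and quartiles). The box medians lie between -1.08 and -0.26 in the 6 derivative libraries, Slfn5 is low in all 6, and Slfn9 is above 0 in all but G1C7 replicate 2.

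The members lie between positions 82951349 and 83215154 of chromosome 11, a span of 264 kb that starts 36.5 Mb from the start of Havcr2 on the same chromosome. Another 85 genes start within 1 Mb of this span; 29 had no reads and 32 were tested, Slfn10-ps among them. The 4 nearest tested genes on each side had changes in G1C7 from -0.70 (Nle1, a ribosome assembly factor) to 0.77. In G2C9 these 8 ranged from -0.72 (Nle1) to 0.38, and 1 was called, Rad51d, a recombination repair gene (-0.59 ± 0.13, adjusted p = 0.0170, edgeR). That call was lost without any 1 of the Gcontrol libraries or G2C9 replicate 1.

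Of all tested genes, 17.5% in G1C7 and 13.5% in G2C9 were called in either direction, and 8.73% and 7.22% were called lower. The median log2 fold changes of all tested genes were 0.02 and 0.01. Shares called in the wider window are near those for either direction, and an excess of lower calls was not tested. In that window, 4 of 32 genes were called in G1C7 and 5 in G2C9, all lower, with medians of -0.19 and -0.38. In G1C7 these were Synrg and the chemokines Ccl2 (-1.43 ± 0.20), Ccl7 (-1.73 ± 0.16) and Ccl8 (-3.35 ± 0.79), which attract monocytes; the Ccl8 call was lost without any 1 of the Gcontrol libraries or G1C7 replicate 1. In G2C9 they were Rad51d, the chemokine Ccl9 (-1.56 ± 0.42), Synrg, Heatr6 and Tada2a; Synrg, Heatr6 and Tada2a changed by under 2-fold and are named after their values were seen. The Ccl9 call was lost without any 1 of the Gcontrol or G2C9 libraries. Between the derivatives 2 of 32 were called, Ccl2 and Ccl7, beside 3.36% of all tested genes. Ccl2 stood at 424, 455 and 418 CPM in Gcontrol, at 162, 148 and 171 in G1C7 and at 312, 317 and 527 in G2C9. The derivatives did not overlap, with a difference of -1.26 ± 0.19 (adjusted p = 0.0112, edgeR). Ccl7 stood at 65.9, 46.6 and 65.4 CPM in G1C7 and at 126, 139.9 and 165 in G2C9, a difference of -1.28 ± 0.16 (adjusted p = 0.00449, edgeR). With only the derivatives in the fit neither was called (adjusted p = 0.0922 and 0.0504).

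**Figure D5:**
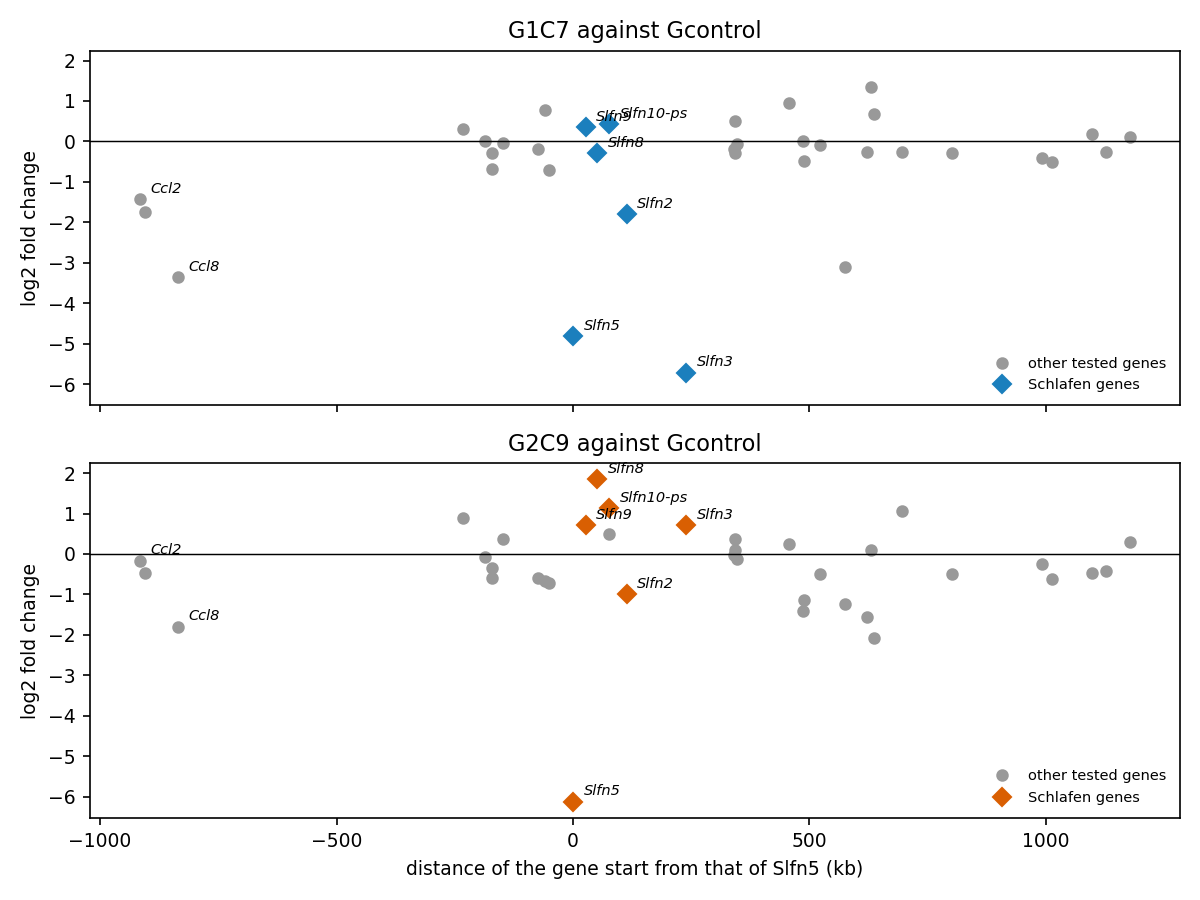
Log2 fold change (y axis) of tested genes against the distance of their start from that of Slfn5 in kb (x axis), for G1C7 (upper panel) and G2C9 (lower panel) against Gcontrol; diamonds are Schlafen genes and grey points other genes. Slfn5 and Slfn3 in G1C7 and Slfn5 in G2C9 lie lowest, and the 8 nearest other genes lie between -0.72 and 0.77.

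Genes with the most similar profile were ranked by Pearson's r of log2(CPM + 0.5) over the 9 libraries, among 10975 protein-coding genes. The 9 points fall into 3 groups, share the libraries that stood apart and were searched for the highest value, so r is a description. Slfn5 was closest to Hydin (r = 0.99), Sall1, Mrpl38, Adam12 and Loxl4. Slfn8 was closest to Plekho2 (0.98), Vcan, Zgrf1 and Acvr2a, and Slfn9 to Bclaf1 (1.00), Parva, Heatr3, Lancl2 and Lman2. Slfn3 was closest to Acp1 (0.98), Ssx2ip, Wdr35, Prkacb and Ska1, and Slfn2 to Cby1 (0.97), Scnm1, Ribc1, Chid1 and Proser1. No gene stood on 2 of these lists, and Mrpl38 alone lies on chromosome 11.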

How the data were processed

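Poly(A) RNA of 9 libraries was sequenced from a stranded kit as read pairs of 100 bases, per the labels' protocols. The deposited values are counts of reads per gene, made by the authors with featureCounts 1.6.0 against GENCODE (GRCm38), per the file headers. FastQC 0.11.8, STAR 2.6.1c, edgeR and limma are named in the submitters' processing notes; the authors' statistics were not used here. The headers of all 9 files set no option for pairs, strand, several positions or several genes, so mates counted separately (74.1% to 75.6% of counts from 2 to 50 were even), strand was ignored and ambiguous reads were dropped. Symbols came from GENCODE vM21 and matched 55141 of 55401 IDs; the other 260 kept their ID.

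Genes were kept with filterByExpr (15659) and fitted in one edgeR 4.0.16 quasi-likelihood model with TMM factors (0.978 to 1.03), robust dispersion and 6 residual degrees of freedom (R 4.3.3). A call is a Benjamini-Hochberg adjusted p under 0.05 over all tested genes, and each SE was derived from the fold change and the F statistic. DESeq2 1.42.0, limma-voom (limma 3.58.1), other filters, other scaling, read pairs in place of reads, a replicate block and each library left out were alternatives. Folds against 0 reads use 6 reads over the group. Counting intervals are 95% exact binomial intervals in read pairs; reads without molecular identifiers are not independent molecules, so they cover counting error only. The scripts were tested on simulated counts.

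The members and lists were chosen with earlier results of these data known. Named genes are the members, the 3 other Schlafen genes, 7 interferon signalling genes set by name, and the 4 highest and 4 lowest called genes of the interferon lists in each derivative. Neighbours within 1 Mb are named where among the 4 nearest tested on each side or called at 2-fold or more. For each member with a mean of 10 reads, the 5 most similar protein-coding genes with a mean of 1 CPM are named. Among the genes that this rule names, 2 are not reported here. All 7 members matched a RefSeq promoter; Slfn10-ps did not.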

Additional observations from a re-analysis of the deposited data

Results flagged for a closer look

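Among the tested members, the genes of the interferon lists and those of the 1 Mb window, 4 were called in a direct test of G1C7 against G2C9. Cell markers and genes with a similar profile are not covered by this count. The contrast takes no Gcontrol level, but its estimate of the spread comes from all 9 libraries, Gcontrol among them. Slfn3 differed by -6.43 ± 0.54 on the log2 scale (adjusted p = 0.000605), with 4 reads over the G1C7 libraries and 348 over those of G2C9. Ccl2 differed by -1.26 ± 0.19 (adjusted p = 0.0112) and Ccl7 by -1.28 ± 0.16 (adjusted p = 0.00449), both lower in G1C7 in 3 of 3 libraries. With only the derivatives in the edgeR fit, neither Ccl2 nor Ccl7 was called (adjusted p = 0.0922 and 0.0504). Gbp2 differed by -1.06 ± 0.11 (adjusted p = 0.00211), also lower in G1C7. The p-values of the 4 genes come from edgeR with adjustment over all tested genes, of which 3.36% were called in this comparison in the main fit.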

How the results depend on the processing

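The call of Slfn3 between the derivatives held in all 18 alternatives, while counts of called genes depended on the libraries and tool. Counts of members against Gcontrol rest on the contrasts that chose the family and support nothing. In the order G1C7, G2C9 and G1C7 against G2C9, the members called were 2, 2 and 1. A filter at 1 CPM in 3 libraries left 3 members to test, of which 1 and 1 were called in the derivatives; Slfn5 then could not be fitted. DESeq2 called 2 members between the derivatives. Without both libraries that stood apart, an alternative added after seeing the data, the counts were 4, 5 and 3. Leaving out 1 library gave 2 to 4, 1 to 3 and 1 to 2.

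For signalling genes (3, 2 and 0 called), DESeq2 gave 5 in G2C9 and 2 between the derivatives, the fit without both libraries 13, 13 and 9, and leaving out 1 library 1 to 8, 0 to 5 and 0 to 3. For interferon-stimulated genes (17, 18 and 1), DESeq2 gave 8 between the derivatives, the fit without both libraries 44, 45 and 21, and leaving out 1 library 11 to 34, 9 to 28 and 1 to 3. For the 1 Mb window (4, 5 and 2), DESeq2 gave 7, 9 and 5, a fit of only the groups compared 13 in G2C9 and 0 between the derivatives (6 at an unadjusted p under 0.05, edgeR), the fit without both libraries 19, 24 and 13, and leaving out 1 library 2 to 10, 1 to 16 and 2 to 4. The genes called over the whole set moved too. DESeq2 called 3862, 3190 and 1267 of 15659, where the main fit called 2740, 2109 and 526. A fit of only the groups compared called 3212 of 15173 in G2C9, with 27 window genes tested. Between the derivatives it called 80 of 14792, with 28 window genes tested. The fit without both libraries called 54.3%, 53% and 27.3%. Without Gcontrol replicate 1, 1181 of 16133 were called in G1C7 and 878 in G2C9. The cause of these changes was not tested.

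The labels do not say whether libraries of the same number belong together. In their deviations from the group means, same-numbered libraries correlated between -0.716 and 0.620, and differently numbered ones between -0.723 and 0.775. The libraries that stood apart carry different numbers and weigh on these correlations, which therefore cannot decide a pairing. With the number as a replicate block, 1 member was called in G2C9 (Slfn8 stood at 1.82), 11 interferon-stimulated genes in G1C7 and 2 window genes in G2C9. No other of these counts moved by over 1.5 times. Over all 15659 tested genes that fit called 1532 in G1C7 and 1114 in G2C9.

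Values near 0 changed sign. Without both libraries, Slfn8 in G1C7 stood at 0.073, Ifnar2 at -0.37 in G1C7 and -0.11 in G2C9, and Stat2 at -0.042 and -0.11. With 1 library left out, Slfn8 in G1C7 ranged from -0.67 to 0.079, Ccl9 from -0.99 to 0.018, Ifnar1 from -0.17 to 0.034, Ifnar2 from -0.37 to 0.19 and Stat2 from -0.040 to 0.69; in G2C9 Ifnar2 ranged from -0.11 to 0.30 and Stat2 from -0.10 to 0.63. Ifnar2 in G1C7 was -0.051 by limma-voom and -0.0086 with the block. Slfn1 and Slfn4 are under the limit of 6 reads, so differences in them were not detectable at this depth.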
